A study of Mus musculus with 12 samples.

Results

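Muscle that received a Dux vector was compared with muscle that received an empty vector, both after doxycycline chow (DUX_DOX against EV_DOX). The 6 libraries were taken by their column names from the 12 of the series, 3 a side, and all 12752 genes of the count table were read, of which 12751 were tested. Every library was made from whole tibialis anterior, a fast muscle of the lower hind limb, of male C57BL/6 mice injected at 8 weeks of age. All groups of the series, controls included, received AAV:TET. EV_DOX muscle also received AAV:MCS, an empty vector, and DUX_DOX muscle received AAV:Dux in the contralateral limb, in 30 µl of buffer. Mice ate standard chow for 7 days and then chow with 600 mg/kg doxycycline, for 2 or 7 more days. Which of these times, and which vector dose, applied to these libraries is not given in the sources used here, nor is the promoter or cell type that drives Dux. The general protocol also names a MyoPro vector, which the labels of these libraries do not list. The other 6 libraries came from muscle with the same vectors on normal chow (EV and DUX). RNA was purified from whole muscle and 200 ng was used for poly-A libraries. The labels do not tie each library to an animal of its own, so the p-values measure the spread between these libraries, which may be technical.

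Dux is a transcription factor with paired homeodomains that is active for a short time in the early mouse embryo, when the embryonic genome is first switched on. It is the mouse counterpart of DUX4, whose misexpression in muscle is the cause of facioscapulohumeral muscular dystrophy. Adult muscle does not normally use its targets, among them the Zscan4 zinc finger genes and the Usp17l deubiquitinase genes, so that their reads serve as a readout of an active switch. In muscle, proteins that unfold or tear under load are handled by a chaperone network at the Z-disc, and genes of this network are known to respond to heat, stretch and damage.

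The 6 libraries held 11880593 to 13401394 counts, and the mitochondrially encoded transcripts took 15.5% to 18.8% of them. The first principal component of their log2 CPM (CPM, counts scaled to a common library size with TMM factors) carried 67.8% of the variance and separated the groups. The next carried 13.6% and set EV_DOX 1 apart from the other 5. All 10 skeletal muscle markers were measured, with a summed level of 148700.0 to 159590.0 CPM in EV_DOX and 122770.0 to 140090.0 CPM in DUX_DOX. Of these 10, Des was called higher and Ttn and Neb lower, with 0 to 4 called lower when 1 library was left out and 7 by DESeq2. Here and throughout, fewer cells of a type and less RNA per cell cannot be told apart in whole muscle. A pair of noncoding transcripts outside the naming rule, chosen after their values were seen, bear on RNA composition. Gm26917, a lincRNA, stood at 2.56, 2.09 and 2.74 CPM in EV_DOX 1, 2 and 3 and at 34.1, 61.7 and 36.4 CPM in DUX_DOX 1, 2 and 3, and Rn7sk, the 7SK small nuclear RNA, had 3 counts over EV_DOX and 110 over DUX_DOX. Their part in the results that follow was not tested.

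Of the genes tested, 1905 (14.9%) were called higher in DUX_DOX and 1319 (10.3%) lower, by the edgeR quasi-likelihood test with an adjusted p under 0.05. By more than 2-fold, 618 (4.85%) were higher and 87 (0.682%) lower. The counts of called members in the gene lists below stand beside the 14.9% and 10.3% of all genes. The change was lopsided in size. The median fold of the genes called higher was 1.63 and that of the genes called lower 1.38, and 176 genes rose by more than 4-fold while 4 fell by as much. The median log2 fold change of all genes tested was -0.01. In 1867 of the genes called higher and 1271 of those called lower, the 3 and 3 libraries did not overlap. Of all genes tested, called or not, 2726 lay higher and 2203 lower without overlap. Most genes named below were chosen by p, by size of change or by no overlap, so that groups standing apart there is no separate support. Without DUX_DOX 3, 739 genes were called lower, and 55 by more than 2-fold, a count that was 138 without EV_DOX 2. Scaling by library totals alone shifted the median of all genes to 0.10 and gave 2437 genes higher and 674 lower, so that 78.3% of the calls were higher in place of 59.1%. With upper-quartile factors 50.9% were higher, 1709 against 1647.

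**Figure D1:**
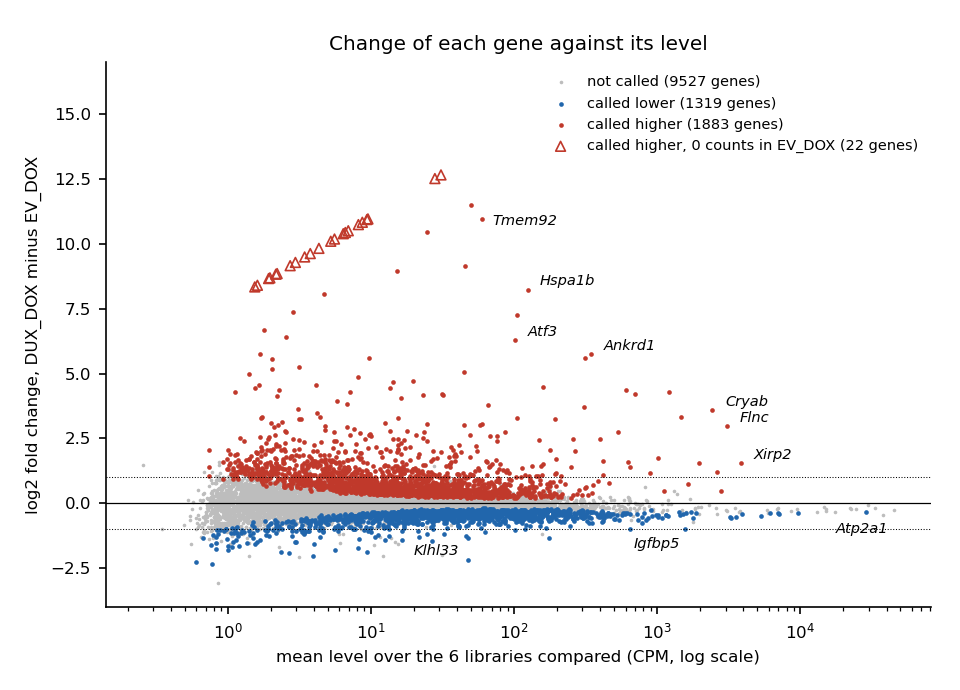
Each point is 1 of the 12751 genes tested, with its mean level over the 6 libraries in CPM on a log axis and its fitted log2 fold change, DUX_DOX minus EV_DOX, on the vertical axis, and dotted lines at 2-fold. The 1905 genes called higher reach far above 2-fold, the 22 triangles had 0 counts in EV_DOX, and most of the 1319 genes called lower stay within 2-fold.

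Most genes that rose steeply were scarce in control muscle. Among the 618 genes that rose by more than 2-fold, 165 stood under 1 CPM in EV_DOX, 314 between 1 and 10 CPM, and 21 at 100 CPM or more. The falls showed the opposite leaning. Of genes with a mean over all 12 libraries of 1 to 10 CPM, 4.49% were called lower, against 12% at 10 to 100 CPM, 29.2% at 100 to 1000 CPM and 32.1% of the 78 genes at 1000 CPM or more. Power to call a change also grows with the level, and its part in this order was not tested. Between 9.14% and 15.9% of the genes of these classes were called higher, with no such order. The genes called lower took 21.8% to 23.1% of the counts of the EV_DOX libraries and 16.8% to 18.1% in DUX_DOX, and those called higher took 5.32% to 5.804% and 11.8% to 13.0%. The annotated gene types differed in their calls, and the difference was not tested. Of 158 lincRNAs, 28 were called lower and 7 higher (median log2 fold change -0.33), and of 131 antisense genes 19 were lower and 5 higher (-0.26). Processed transcripts (16 lower and 6 higher of 115, median -0.24) and unverified TEC loci (8 and 2 of 57, -0.35) stood on the same side. Processed pseudogenes stood on the other, with 7 higher and 1 lower of 86 (0.15), and lncRNAs at bidirectional promoters had 2 higher and 1 lower of 25 (-0.10). Protein-coding genes stood at 10.2% lower and 15.4% higher. Whether the counting used strand is not given in the sources used here, so reads of antisense genes and their partners may not be told apart.

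**Figure D2:**
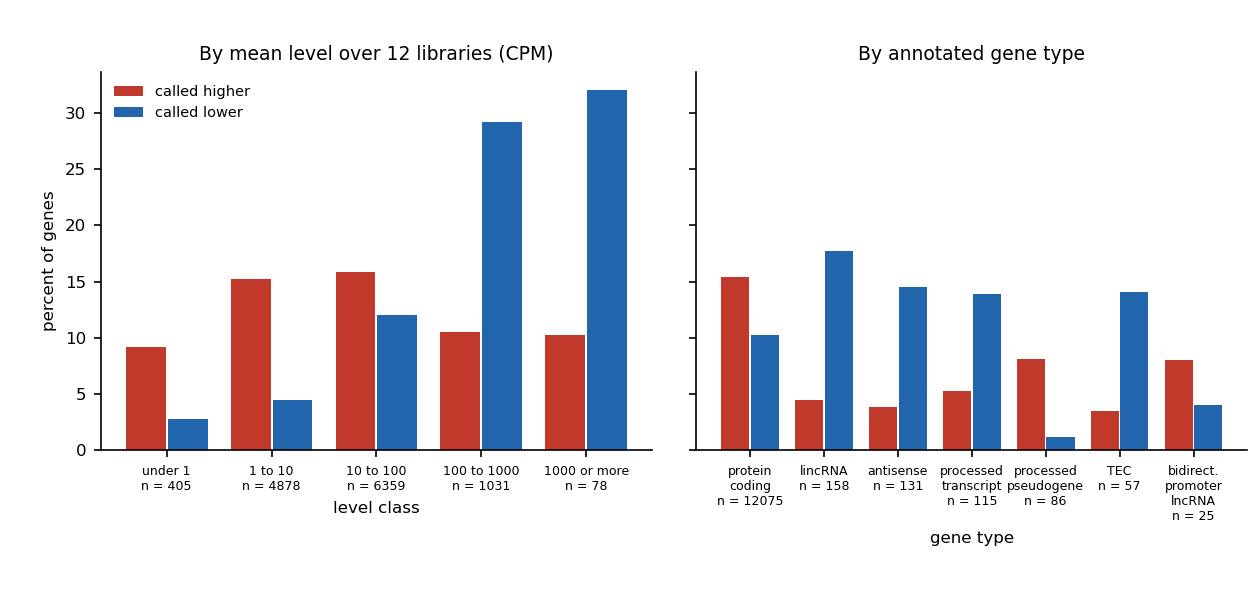
Bars give the percent of genes called higher (red) and lower (blue) in DUX_DOX against EV_DOX, by mean level over 12 libraries in CPM (left) and by annotated gene type (right), with the number of genes under each pair. The share called lower goes from 4.49% at 1 to 10 CPM to 32.1% at 1000 CPM or more, and lincRNAs have 17.7% lower and 4.43% higher.

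The steepest rises came from genes that control muscle left silent. In all 43 genes rose by more than 32-fold, and 33 of these had a mean under 0.1 CPM in EV_DOX. AW822073, the transcript beside the Dux gene, had 0.073, 0 and 0 CPM in EV_DOX and 2.82, 4.29 and 3.56 CPM in DUX_DOX. The Dux gene itself was not analysed here. Rfpl4b, a gene of the ret finger protein-like family, had 0 counts in every EV_DOX library and 51.7, 75.4 and 40.5 CPM in DUX_DOX, at least 740.3-fold higher taking 3 counts as the most that EV_DOX could have missed. Samd7, a sterile alpha motif gene known from photoreceptors, went from 0 counts to 6.93, 6.01 and 3.4 CPM, at least 71.8-fold higher. Tcstv1, a gene of the 2-cell embryo, went from 0 counts to 4.11, 8.87 and 7.65 CPM, at least 90.8-fold higher. No EV_DOX library reached any DUX_DOX library for these genes, which the naming rule for the largest rises required. Genes that passed the low-count filter through DUX_DOX alone had to differ. Of 34 symbols listed as Dux targets in embryonic cells, 17 were measured, as 19 genes. All 15 of those under 1 CPM in EV_DOX were called higher, 11 of them with 0 counts there. For members that passed the filter through DUX_DOX alone this was fixed in advance, so these calls are no separate support. Of the 4 others Eif1a, a translation initiation factor, was called higher and Slc25a51, a mitochondrial carrier, lower by 0.21 (adjusted p = 0.0412). The Slc25a51 call was lost without DUX 1, DUX 2, DUX 3, DUX_DOX 2, DUX_DOX 3, EV 3, EV_DOX 1 or EV_DOX 3. Fitted values gave a list median of 10.18, which became 7.41 where lower bounds replaced the fits of genes without counts in EV_DOX, beside -0.01 over all genes.

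These silent genes did not rise equally in the 3 libraries of induced muscle. Of the 33 genes under 0.1 CPM in EV_DOX, 26 were highest in DUX_DOX 2. Tmem92, a transmembrane protein gene, reached 85.6, 167 and 106 CPM in DUX_DOX 1, 2 and 3, with 2 counts over the EV_DOX libraries. Among all genes called higher the order was another one, with 865 highest in DUX_DOX 3, 764 in DUX_DOX 2 and 276 in DUX_DOX 1. Several of the silent genes sit side by side. Counting tested genes along each chromosome in GRCm38, 6 runs held 3 or more neighbours that all rose by more than 2-fold. The longest was the Zscan4 cluster of 10 genes at chr7:10794242-11614112. Another was a run of 4 at chr11:94777217-94828930, made of Tmem92 and 3 unprocessed pseudogenes that lie beside it (named here outside the rule, after their values were seen). Gm11543 had 1 count in EV_DOX and 4035 in DUX_DOX, a ratio of 3969 with a 95% counting interval from 712 to 156790. AA623943 went from 1 count to 381, and Gm11546 from 0 to 241, at least 79.0-fold higher. Reads of near-identical copies such as the Zscan4 and Usp17l genes, and perhaps these pseudogenes, cannot be assigned to 1 member from the counts, so single values in these clusters are uncertain. Other runs held host genes, among them Serpinb1a, Serpinb1c and Serpinb6b, intracellular protease inhibitors, and Rgs2, Pla2g4a and Ptgs2, whose products include the enzymes that free and convert arachidonic acid. Pla2g4a was not called in every fit (lost without DUX_DOX 2 or DUX_DOX 3) nor was Serpinb1c (lost without DUX 1, DUX_DOX 1, DUX_DOX 2, DUX_DOX 3, EV 1, EV_DOX 1 or EV_DOX 3).

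Genes for chaperones were examined by compartment, and small heat shock proteins of the cytosol were all called higher. Small heat shock proteins, which hold unfolded proteins at the Z-disc without ATP, were called higher in 7 of 7 members (median 1.61). Cryab, the alpha-B crystallin that guards desmin, stood at 325, 353 and 437 CPM in EV_DOX 1, 2 and 3 and at 4692, 4191 and 4582 CPM in DUX_DOX 1, 2 and 3 (log2 fold change 3.59, SE 0.17, adjusted p = 4.51e-09). The lowest DUX_DOX library was far above the highest EV_DOX library, and the 3 DUX_DOX values lay close together. Hspb7, a small heat shock protein of heart and muscle, went from 339.7, 207 and 256 to 2768, 2358 and 2907 CPM (log2 fold change 3.32, SE 0.29, adjusted p = 1.59e-06), again without overlap. Hspb8, which works with Bag3 in clearing damaged filamin, rose by 1.61 (SE 0.10, adjusted p = 7.18e-08) from 274, 335 and 313 to 963, 1018 and 826 CPM. Hspb1 rose the most of the class, by 4.36 (SE 0.12, adjusted p = 1.76e-11). Its processed pseudogene Hsp25-ps1, outside the rule, went from 3 counts to 160, and its reads may belong to Hspb1. Summed over the 7 genes the level was 2044 to 2574 CPM in EV_DOX and 10460.0 to 12223 CPM in DUX_DOX.

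Among the ATP-driven chaperones both inducible and constitutive members were called higher. Of 44 genes of the Hsp70, Hsp40, Hsp90 and Hsp110 families and their co-chaperones, 23 were called higher and the other 21 did not pass the test (median 0.31). Hspa1b, a stress-inducible Hsp70, was nearly silent at 1.02, 0.775 and 0.626 CPM in EV_DOX and stood at 325, 285 and 132 CPM in DUX_DOX (log2 fold change 8.23, SE 0.39, adjusted p = 4.69e-09). DUX_DOX 3 was lower than the other two of its group in Hspa1b, in its near-identical copy Hspa1a (269, 241 and 116 CPM) and in Hsp90aa1. Hsp90aa1, the inducible cytosolic Hsp90, went from 20.5, 20.7 and 17.7 to 212, 225 and 136 CPM (log2 fold change 3.28, SE 0.17, adjusted p = 7.14e-09), while its constitutive partner Hsp90ab1 rose by 0.48 (SE 0.08, adjusted p = 0.000713). Dnaja4, an Hsp40 co-chaperone, went from 102, 99.1 and 119 to 431, 431 and 425 CPM (log2 fold change 2.01, SE 0.11, adjusted p = 1.23e-08), with DUX_DOX libraries that hardly differed. Hspa8, the constitutive Hsp70, rose by 1.19 (SE 0.10, adjusted p = 1.94e-06). The transcript of Hsf1, the factor that switches on heat shock genes, stood at 0.02 on the log2 scale (adjusted p = 0.916), and that of Unc45b, the myosin chaperone, at -0.20 (adjusted p = 0.104), called lower without DUX_DOX 1 or EV_DOX 1. Hsp90ab1, Hspa8, Hsf1 and Unc45b are named outside the rule, to show the constitutive members beside the inducible ones.

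Promoters of genes that rose are shown here because heat shock factors bind repeats of GAA and its complement. The core GAANNTTC, which reads alike on both strands, was sought in the 250 bases before each start in the RefSeq promoter table (GRCm38.p6), where 9562 tested genes had a window. It was present in 6.01% of these genes (4.91% of all 12281 windows), in 33 of 437 genes that rose by more than 2-fold (7.55%) and in 7 of 45 that rose by more than 8-fold (15.6%), namely Ankrd1, Bdnf, Csrp3, Hspa1a, Hspa1b, Hspb1 and Mustn1. Of 49 genes that fell by more than 2-fold 3 held it (6.12%). Only genes with a window and a unique symbol are counted, so the 437, 45 and 49 are parts of 618, 86 and 87. Of the matches, Hspa1a and Hspa1b are near-identical copies. A match is a description of the letters and not a bound site. The 200 bases before the start are shown for 5 genes that rose, 5′ to 3′ on the gene's strand, with the core in capitals. Hspb1 (chr5:135887719-135887918, plus strand) and Dnaja4 (chr9:54699359-54699558, plus) hold a pair of cores each, and Hspa1b (chr17:34959239-34959438, minus), Ankrd1 (chr19:36119845-36120044, minus) and Csrp3 (chr7:48843672-48843871, minus) hold 1 each.
Hspa1b: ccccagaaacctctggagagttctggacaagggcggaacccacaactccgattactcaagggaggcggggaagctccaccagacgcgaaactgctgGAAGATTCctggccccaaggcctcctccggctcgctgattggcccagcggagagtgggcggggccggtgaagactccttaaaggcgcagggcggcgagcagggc
Hspb1: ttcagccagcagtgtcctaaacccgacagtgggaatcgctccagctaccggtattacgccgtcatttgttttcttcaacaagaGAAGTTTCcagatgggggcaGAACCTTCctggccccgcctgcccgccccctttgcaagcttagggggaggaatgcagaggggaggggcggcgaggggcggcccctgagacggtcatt
Dnaja4: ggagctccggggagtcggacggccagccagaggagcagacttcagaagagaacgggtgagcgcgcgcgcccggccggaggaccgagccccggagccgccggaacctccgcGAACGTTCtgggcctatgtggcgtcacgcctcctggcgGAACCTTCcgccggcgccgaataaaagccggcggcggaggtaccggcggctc
Ankrd1: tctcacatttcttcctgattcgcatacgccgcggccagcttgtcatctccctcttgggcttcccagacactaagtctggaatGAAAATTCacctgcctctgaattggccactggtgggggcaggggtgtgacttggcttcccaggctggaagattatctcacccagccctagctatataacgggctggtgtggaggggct
Csrp3: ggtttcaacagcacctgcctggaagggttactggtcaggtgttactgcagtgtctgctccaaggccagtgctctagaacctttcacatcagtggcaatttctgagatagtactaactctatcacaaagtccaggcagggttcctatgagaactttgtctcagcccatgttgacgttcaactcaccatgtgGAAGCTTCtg
The cores of Hspb1 start 117 and 97 bases before the transcript start, those of Dnaja4 90 and 52, that of Hspa1b 104, that of Ankrd1 118 and that of Csrp3 10.

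In the endoplasmic reticulum, where secreted and membrane proteins fold, 19 of 26 chaperone and degradation genes were called higher (median 0.60). Sdf2l1, a co-chaperone induced by unfolded proteins, went from 2.19, 2.71 and 1.72 to 12.5, 15.2 and 16.1 CPM (log2 fold change 2.72, SE 0.22, adjusted p = 8.68e-07). Hspa5, the lumenal Hsp70 also called BiP, went from 128, 152 and 138 to 269, 305 and 294 CPM (log2 fold change 1.06, SE 0.10, adjusted p = 3.13e-06). Both genes were higher in every DUX_DOX library than in any EV_DOX library. Also called were Manf, a secreted protein of the stressed reticulum (1.28, adjusted p = 3.95e-06), Pdia6, a disulfide isomerase (0.89, adjusted p = 3.74e-06), and Calr, a calcium-binding lectin chaperone (0.66, adjusted p = 7.07e-05). The 1 member called lower, Herpud1, lost its call without DUX_DOX 2 or EV_DOX 3. Of 15 subunits of the cytosolic chaperonin TRiC, which folds actin and tubulin, and of prefoldin, 5 were called higher, with 1 with only the 6 libraries, 2 without DUX_DOX 1 or with upper-quartile factors, 3 without DUX 1, DUX 2, DUX 3, DUX_DOX 2, DUX_DOX 3, EV_DOX 1 or EV_DOX 2 or with RLE factors and 9 with library totals only. Cct3 rose by 0.47 (SE 0.07, adjusted p = 0.000296). Of 18 mitochondrial chaperones and proteases, 16 did not pass the test (median -0.11), while Clpx, the unfoldase of a matrix protease, went from 48.1, 50.034 and 55.5 to 42.8, 39.2 and 37.4 CPM (log2 fold change -0.36, SE 0.09, adjusted p = 0.00673). Hspe1, the cochaperonin of Hsp60, was called higher by 0.48 (adjusted p = 0.0494), a call lost without any 1 of DUX 1, DUX 2, DUX 3, DUX_DOX 1, DUX_DOX 2, DUX_DOX 3, EV 3, EV_DOX 1 or EV_DOX 2. Without EV_DOX 1, 4 mitochondrial members were called lower, and 2 without DUX_DOX 1. Whether the compartments differ from each other was not tested.

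**Figure D3:**
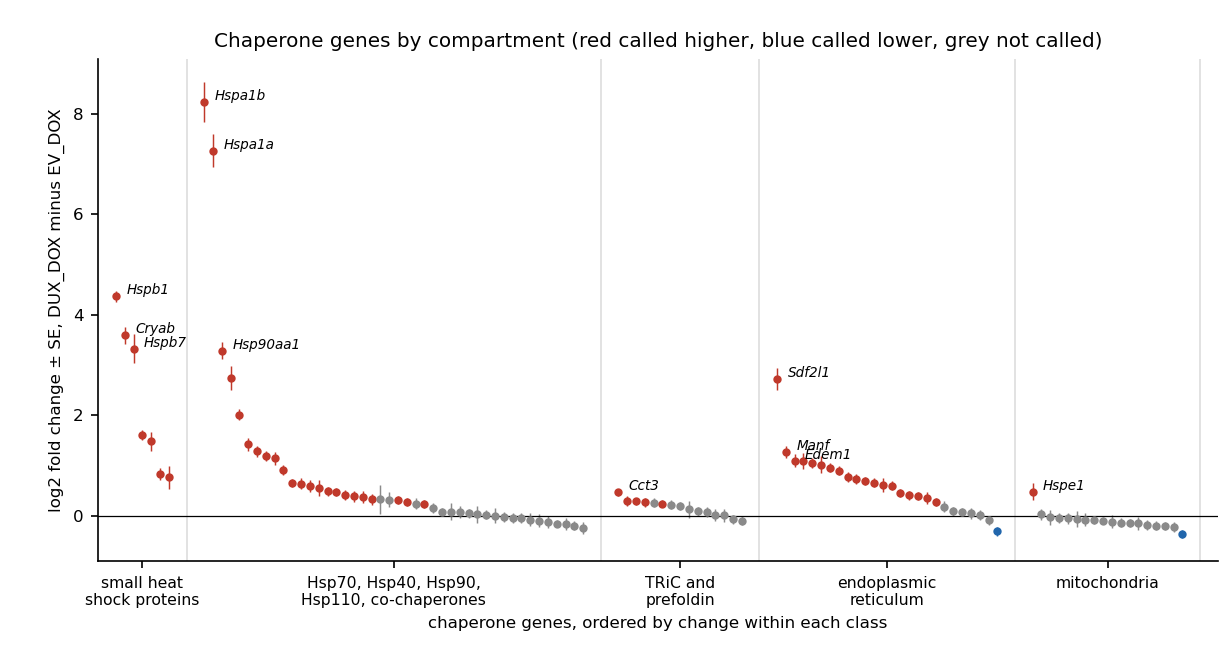
Points give the log2 fold change, DUX_DOX minus EV_DOX, with its standard error for each chaperone gene, ordered by size within its class, red where called higher, blue where called lower and grey where not called. Small heat shock proteins (7 of 7) and reticulum genes (19 of 26) are mostly red, with Hspa1b at 8.23, and 16 of 18 mitochondrial genes are grey.

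Transcription factors of the first stress response rose together. Of 33 AP-1 and immediate early genes, which cells switch on within minutes of a stimulus, 27 were called higher and the other 6 did not pass the test (median 1.18). Csrnp1, a nuclear protein induced by Axin, went from 3.21, 2.94 and 2.5 to 28.9, 28.8 and 26.3 CPM (log2 fold change 3.27, SE 0.15, adjusted p = 2.62e-09). Dusp5, a nuclear phosphatase of ERK, went from 0.365, 1.01 and 0.704 to 14.3, 14.9 and 11.6 CPM (log2 fold change 4.29, SE 0.25, adjusted p = 3.57e-08). Jun, a core AP-1 subunit, went from 51.3, 47.7 and 47.3 to 121, 117 and 114 CPM (log2 fold change 1.27, SE 0.08, adjusted p = 1.18e-07), and Egr2 rose by 2.21 (SE 0.25, adjusted p = 2.02e-05) and Myc by 1.18 (SE 0.21, adjusted p = 0.00107). In each of these genes the 2 groups stood apart. Summed over the list the level was 561 to 657 CPM in EV_DOX and 1266 to 1284 CPM in DUX_DOX, with little spread within either group. The plot of levels by library shows Atf3, which belongs to this list and to the next, at 1.53, 3.18 and 3.05 CPM in EV_DOX and 215, 198 and 189 CPM in DUX_DOX.

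**Figure D4:**
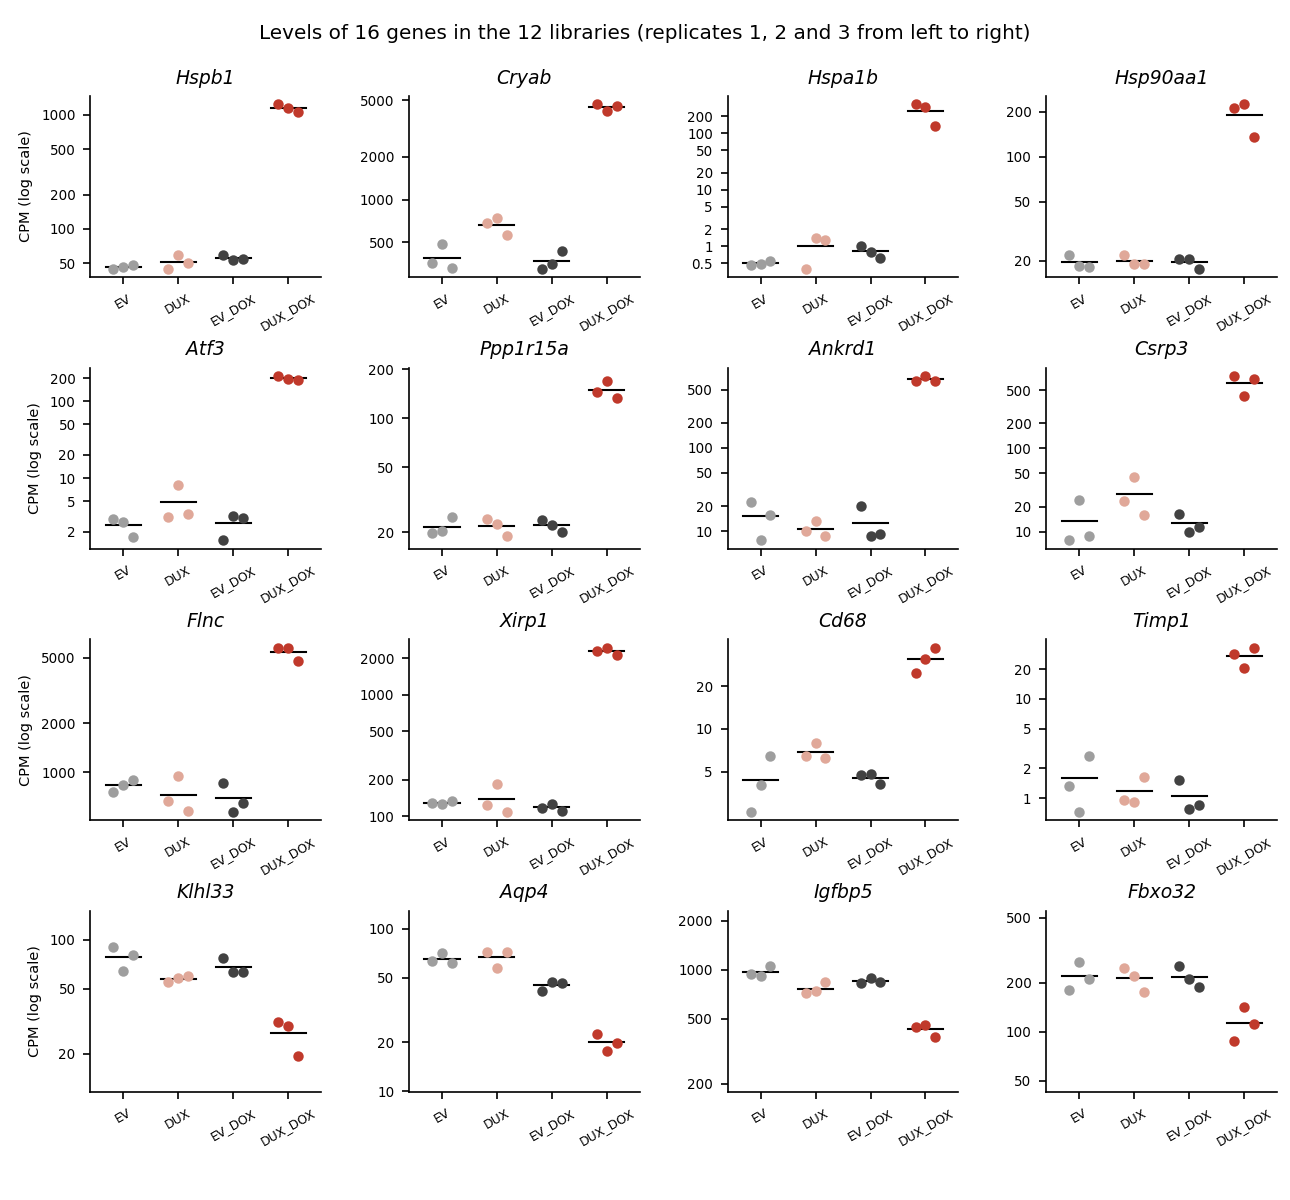
Each panel gives 1 gene's level in CPM on a log axis in the 12 libraries, with replicates 1, 2 and 3 from left to right in each group and a line at the group mean. In all 16 genes the 3 DUX_DOX points stand apart from the 3 EV_DOX points, above them in 12 genes and below them in Klhl33, Aqp4, Igfbp5 and Fbxo32.

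The AP-1 element TGANTCA, a palindrome around its middle base, was sought in the same windows. It was present in 5.49% of the genes (4.50% of the windows), in 46 of 437 genes that rose by more than 2-fold (10.5%) and in 9 of 45 that rose by more than 8-fold, and in 6 of 49 that fell by more than 2-fold (12.2%). The 200 bases before the start are shown for 4 genes that rose and hold it, with the element in capitals. Csrnp1 (chr9:119983024-119983223, minus strand) holds it at 102 and 14 bases before the start, Mt2 (chr8:94172418-94172617, plus) at 79, Klhl40 (chr9:121777407-121777606, plus) at 44 and Rcan1 (chr16:92400079-92400278, minus) at 110.
Csrnp1: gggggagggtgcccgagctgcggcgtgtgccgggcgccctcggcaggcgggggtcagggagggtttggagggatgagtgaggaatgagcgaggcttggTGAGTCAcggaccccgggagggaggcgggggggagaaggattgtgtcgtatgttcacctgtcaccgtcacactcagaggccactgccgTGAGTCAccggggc
Mt2: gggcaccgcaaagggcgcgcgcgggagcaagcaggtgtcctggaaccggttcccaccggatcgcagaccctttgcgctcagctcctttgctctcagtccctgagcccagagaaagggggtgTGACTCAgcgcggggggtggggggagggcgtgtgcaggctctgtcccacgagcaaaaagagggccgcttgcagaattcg
Klhl40: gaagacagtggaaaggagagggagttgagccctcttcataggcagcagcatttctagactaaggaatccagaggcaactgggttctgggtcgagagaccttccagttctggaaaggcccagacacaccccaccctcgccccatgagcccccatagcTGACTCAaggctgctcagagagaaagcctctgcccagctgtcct
Rcan1: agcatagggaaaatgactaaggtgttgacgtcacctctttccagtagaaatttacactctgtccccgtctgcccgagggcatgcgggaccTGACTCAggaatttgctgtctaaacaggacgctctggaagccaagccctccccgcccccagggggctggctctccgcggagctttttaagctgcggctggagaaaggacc
The full palindrome of the cAMP response element, TGACGTCA, was present in 3.05% of the genes, in 13 of the 437 (2.97%), in 0 of the 45 and in 1 of the 49 (2.04%). The core of the Dux motif, GATTNAATC, was present in 17 of the 9562 genes (0.178%) and in 1 of the 45, Gm21761, a gene outside the rule with 0 counts in EV_DOX and 2.06, 5.86 and 3.63 CPM in DUX_DOX. A window of 250 bases leaves most regulatory sequence unread.

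The integrated stress response, in which phosphorylated eIF2 slows translation and favours Atf4, moved in part. Of 27 genes 12 were called higher and 1 lower (median 0.64). Atf4, its central factor, went from 120.3, 139.9 and 143 to 230.3, 231 and 254 CPM (log2 fold change 0.83, SE 0.09, adjusted p = 2.29e-05). Mthfd2, a mitochondrial folate enzyme and Atf4 target, went from 5.11, 6.51 and 5.63 to 28.8, 39.4 and 39.2 CPM (log2 fold change 2.64, SE 0.17, adjusted p = 9.27e-08). Ppp1r15a, which restores translation, rose by 2.76 (SE 0.12, adjusted p = 2.57e-09), and Sesn2, a sensor of amino acids, by 1.41 (SE 0.20, adjusted p = 0.000132). Ddit3, the death-promoting factor CHOP, stood at 0.01 on the log2 scale (adjusted p = 0.988, outside the rule). Against oxidants and metals, 11 of 32 genes were called higher, and 2 lower, 0 without DUX_DOX 2, 1 without DUX 2, DUX_DOX 1 or EV_DOX 3 or with library totals only or with only the 6 libraries, 4 without DUX 3, DUX_DOX 3, EV 2, EV_DOX 1 or EV_DOX 2, 5 with the GC offset, 6 by DESeq2, with RLE factors or with the length offset and 7 with upper-quartile factors. Mt2, a metallothionein, went from 1.9, 2.09 and 1.49 to 37.7, 20.5 and 34.2 CPM (log2 fold change 4.07, SE 0.39, adjusted p = 4.78e-06) and Mt1 rose by 2.08 (SE 0.24, adjusted p = 2.49e-05), both lowest in DUX_DOX 2 among the induced libraries. Srxn1, which repairs peroxiredoxins, went from 17.6, 18.1 and 15.7 to 70.5, 70.013 and 62.1 CPM (log2 fold change 1.98, SE 0.10, adjusted p = 9.14e-09).

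Genes of growth arrest and of cell death were called higher in part. Over all genes 14.9% were called higher and 10.3% lower. Of 34 p53 targets 14 (41.2%) were called higher, 9 without DUX_DOX 3, and 2 (5.88%) lower, 4 without EV_DOX 1 (median 0.33). Btg2, an antiproliferative factor, went from 12.9, 14 and 15.7 to 68, 73.8 and 61.4 CPM (log2 fold change 2.26, SE 0.11, adjusted p = 7.14e-09), and Zmat3, a p53-induced zinc finger protein, rose by 0.65 (SE 0.12, adjusted p = 0.00112). Of 30 genes of the Bcl2 family and the caspases, which promote or block cell death, 8 (26.7%) were called higher and 1 (3.33%) lower (median 0.18). The number higher was 4 without DUX_DOX 3 and 5 without DUX_DOX 2 or EV_DOX 2 or with only the 6 libraries. The number lower was 0 without DUX_DOX 3, EV_DOX 1 or EV_DOX 3 or with library totals only or with only the 6 libraries. It was 2 without EV_DOX 2 or with RLE factors, with the length offset or with upper-quartile factors. Among those higher Mcl1, a survival factor, went from 125, 130.2 and 146 to 179, 188 and 189.9 CPM (log2 fold change 0.47, SE 0.08, adjusted p = 0.000823). The groups did not overlap in Btg2 or Mcl1. Of 40 replication and cell cycle genes 15 (37.5%) were called higher and 1 (2.5%) lower (median 0.43). The number lower was 0 to 2 when 1 library was left out. Those higher included Cdt1 (2.02), which licenses origins, and Mcm5 (1.49), a helicase subunit, with adjusted p = 0.000388 and 0.000448. Beside this, 22 of 26 macrophage and monocyte markers were called higher, and their part in the rise of dividing-cell genes was not tested.

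Some genes for making ribosomes and handling RNA were called higher, by small amounts, where 14.9% of all genes were. Of 44 ribosome biogenesis genes 21 were called higher (median 0.28), with 10 without DUX_DOX 3 or with only the 6 libraries, 12 without EV_DOX 1 and 13 without DUX_DOX 1 or by DESeq2. Ddx21, a nucleolar helicase, rose by 0.49 (SE 0.08, adjusted p = 0.000675) and Nop2, an rRNA methyltransferase, by 0.50 (SE 0.09, adjusted p = 0.00153). Of 41 splicing factors of the SR and hnRNP families 13 were called higher, and 24 with library totals only (median 0.18). Hnrnph1, a splicing repressor, went from 113, 113 and 112 to 171, 195 and 154 CPM (log2 fold change 0.62, SE 0.09, adjusted p = 0.000252), with the EV_DOX libraries nearly equal. Among 77 cytosolic ribosomal proteins 14 (18.2%) were called higher, a share near that of all genes and a count that the setting decided, with 3 without DUX_DOX 3, 5 without EV_DOX 1, 8 without DUX_DOX 1 or with only the 6 libraries, 9 without EV_DOX 2, 25 without DUX_DOX 2, 30 with the length offset and 50 with library totals only. Rpl3, a large-subunit protein, rose by 0.89 (SE 0.09, adjusted p = 1.27e-05). Of 46 translation initiation and elongation factors 8 (17.4%) were called higher, 4 without EV_DOX 2, 5 without DUX_DOX 1 and 15 with library totals only (median 0.07), again near the share of all genes. Among them Eif4a1, the helicase of translation initiation, went from 67.1, 66.9 and 69.6 to 109, 109 and 119.7 CPM (log2 fold change 0.73, SE 0.08, adjusted p = 9.91e-06). Few genes of the cytosolic tRNA synthetases and of nonsense-mediated decay were called. Of 20 synthetases 1 was called higher (median 0.02), 0 without EV_DOX 2 or with only the 6 libraries, 2 without DUX_DOX 1 or EV 2 and 5 with library totals only. In nonsense-mediated decay and the exon junction, 1 of 20 was higher, 0 without DUX_DOX 3 or EV_DOX 1 or with only the 6 libraries, 2 with the length offset and 3 with library totals only, and 1 lower, 0 without EV_DOX 3 or with library totals only or with only the 6 libraries, 2 without DUX_DOX 2 or by DESeq2 and 3 with RLE factors, with the length offset or with upper-quartile factors (median 0.04). Of the proteasome and its feeders, 9 of 57 (15.8%) were called higher, near the 14.9% of all genes, with 5 without DUX_DOX 3 or EV_DOX 2 and 17 with library totals only. Psmd11, a lid subunit, went from 87.3, 92.2 and 99.1 to 187, 200.4 and 188 CPM (log2 fold change 1.05, SE 0.08, adjusted p = 4.91e-07), Zfand2a, an arsenite-inducible proteasome adaptor, rose by 1.29 (SE 0.11, adjusted p = 1.11e-06), and the polyubiquitin gene Ubb rose by 0.61 (SE 0.11, adjusted p = 0.00117).

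Genes of stretch and repair in the contractile apparatus went in both directions, with the steepest members higher. Of 35 such genes 18 (51.4%) were called higher and 5 (14.3%) lower (median 0.40), beside 14.9% and 10.3% of all genes. The other 12 did not pass the test. The number lower was 2 without DUX_DOX 2, DUX_DOX 3 or EV_DOX 3 and 3 with only the 6 libraries or with the length offset. Xirp1, an actin-binding protein that marks sarcomere lesions, went from 118, 126 and 111 to 2282, 2446 and 2126 CPM (log2 fold change 4.27, SE 0.17, adjusted p = 1.13e-09). Flnc, the filamin that tethers Z-discs, went from 859, 570.4 and 651 to 5792, 5733 and 4809 CPM (log2 fold change 2.97, SE 0.19, adjusted p = 8.42e-08). Ankrd1, a stretch-sensing ankyrin repeat protein of the titin filament, went from 20.002, 8.6 and 9.16 to 646, 737 and 646 CPM (log2 fold change 5.74, SE 0.36, adjusted p = 6.2e-08). Csrp3, the muscle LIM protein of the Z-disc, went from 16.5, 9.91 and 11.4 to 739, 426 and 669 CPM (log2 fold change 5.59, SE 0.45, adjusted p = 8.57e-07). In these 4 genes the groups lay far apart, and EV_DOX 1 was the highest control library for Flnc, Ankrd1 and Csrp3. Xirp2 rose by 1.56 (SE 0.12, adjusted p = 4.65e-07), Lmcd1, a LIM cofactor, by 2.75 (SE 0.17, adjusted p = 6.51e-08), and Nrap, an assembly factor of myofibrils, by 1.21 (SE 0.15, adjusted p = 4.1e-05). Mustn1, a small nuclear protein of muscle and bone, went from 66.4, 58.5 and 89.8 to 1219.5, 1319 and 1433 CPM (log2 fold change 4.21, SE 0.34, adjusted p = 8e-07). Enah, an actin-elongating factor, went from 45.6, 43.5 and 42.3 to 629.6, 665 and 415 CPM (log2 fold change 3.70, SE 0.16, adjusted p = 2.43e-09), lowest in DUX_DOX 3.

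Of 28 Kelch genes of muscle, adaptors of cullin ligases that guard or turn over sarcomere proteins, 5 (17.9%) were called higher and 7 (25%) lower. Over all genes 14.9% were higher and 10.3% lower, so that the share higher was near that of all genes. The number higher was 3 without DUX_DOX 2 or DUX_DOX 3 or with only the 6 libraries. Klhl40, which stabilises nebulin and leiomodin, went from 79.6, 80.9 and 75.8 to 448, 493 and 361 CPM (log2 fold change 2.46, SE 0.12, adjusted p = 5.09e-09). Klhl41, its partner in nebulin folding, went from 451, 463 and 494 to 1565, 1628 and 1497 CPM (log2 fold change 1.74, SE 0.10, adjusted p = 2.85e-08). Klhl33, a family member of little known function, went the other way, from 77.2, 63.5 and 63.3 to 31.2, 29.5 and 19.3 CPM (log2 fold change -1.35, SE 0.16, adjusted p = 3.58e-05), with DUX_DOX 3 lowest. Kbtbd13, mutated in a nemaline myopathy, fell by 0.70 (SE 0.10, adjusted p = 0.000187).

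Cytoskeletal genes typical of growing or non-muscle cells rose as well. Of 28 actin-cytoskeleton genes 22 were called higher and the other 6 did not pass the test (median 0.70). Of 27 tubulin and microtubule genes 12 were called higher (median 0.31). Tubb6, a beta tubulin that regenerating muscle uses, went from 16.8, 11.7 and 10.4 to 102, 103 and 116 CPM (log2 fold change 3.04, SE 0.16, adjusted p = 1.32e-08). Myl12a, a regulatory light chain of non-muscle myosin, went from 219.5, 187 and 211 to 621, 615 and 669.6 CPM (log2 fold change 1.63, SE 0.10, adjusted p = 8.95e-08). Actb, cytoplasmic actin, rose by 0.72 (SE 0.09, adjusted p = 4.04e-05). Capg (1.26, adjusted p = 9.26e-06), which caps actin filaments, is abundant in macrophages. The summed macrophage markers stood at 232, 221 and 167 CPM in EV_DOX 1, 2 and 3 and at 418, 406 and 594 CPM in DUX_DOX 1, 2 and 3, and their part in the cytoskeletal rise was not tested.

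Genes of excitation, which carry the nerve signal through the membrane to calcium release, were called lower in 15 of 33 members, by modest amounts. Of these 33 genes 15 were called lower and 1, Dysf, higher (2 without DUX_DOX 2), with a median of -0.27. Clcn1, the chloride channel that keeps the fibre membrane quiet, went from 218, 205 and 215 to 159.6, 123 and 124 CPM (log2 fold change -0.65, SE 0.10, adjusted p = 0.000251). Casq1, the calcium store protein of fast fibres, went from 3556, 4066 and 3774 to 2920.4, 2544 and 2546 CPM (log2 fold change -0.51, SE 0.10, adjusted p = 0.00229). Hrc, a calcium-binding protein of the same store, went from 924, 1058 and 1117 to 755, 672 and 675 CPM (log2 fold change -0.56, SE 0.09, adjusted p = 0.000688). Cacna2d1, a subunit of the voltage sensor, fell by 0.61 (SE 0.10, adjusted p = 0.000731), and Mrln, which encodes the pump inhibitor myoregulin, by 0.75 (SE 0.13, adjusted p = 0.000841). In none of these 5 genes did the libraries of the groups overlap. Rcan1, a calcineurin regulator that calcineurin itself induces, moved upward, from 49.1, 40.7 and 50.3 to 268, 243 and 245 CPM (log2 fold change 2.43, SE 0.12, adjusted p = 7.14e-09).

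Some fast contractile genes were called lower. Of 21 genes 7 (33.3%) were called lower (median -0.31), beside 10.3% of all genes. The number lower was 4 without DUX_DOX 3 and 11 by limma-voom or with upper-quartile factors. It was 13 without EV_DOX 1 and 14 by DESeq2 or with the length offset. Actn3, the alpha-actinin of fast fibres, went from 6972, 5856 and 5651 to 4656, 4030.0 and 4419.6 CPM (log2 fold change -0.50, SE 0.13, adjusted p = 0.0112). Mylk2, the kinase of skeletal myosin light chain, went from 1086, 1049 and 1093 to 851, 681 and 765 CPM (log2 fold change -0.49, SE 0.11, adjusted p = 0.00409). Myoz3, a calsarcin of fast fibres, fell by 0.73 (SE 0.10, adjusted p = 0.000134). Of 16 slow contractile genes 1 (6.25%) was called higher and 2 (12.5%) lower (median -0.26). These counts were 1 to 2 and 1 to 3 when 1 library was left out. Myl3, a slow light chain, fell by 0.63 (SE 0.15, adjusted p = 0.00643). Ttn and Neb, the giant proteins of the sarcomere, had values of -0.39 and -0.38 (adjusted p = 0.0323 and 0.024). With an offset for transcript length these became -0.07 (adjusted p = 0.706) and -0.17 (adjusted p = 0.279). Both calls were lost without DUX_DOX 2, DUX_DOX 3 or EV_DOX 3, and that of Ttn without DUX 2, EV_DOX 1 or EV_DOX 2. The fifth of genes with the longest transcripts had 14.97% called lower, against 7.07% of the fifth with the shortest.

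Genes of the dystrophin complex and of membrane repair were called in both directions. Of 30 genes 8 (26.7%) were called higher and 9 (30%) lower, beside 14.9% and 10.3% of all genes. The number lower was 4 without DUX_DOX 3 or with library totals only and 5 with only the 6 libraries. Anxa2, an annexin that patches torn membrane, went from 40.3, 40.7 and 27.2 to 113, 102 and 125 CPM (log2 fold change 1.65, SE 0.17, adjusted p = 6.52e-06), and Itgb1, the laminin receptor chain, rose by 0.51 (SE 0.09, adjusted p = 0.000759). Ano5, a scramblase whose loss causes limb-girdle dystrophy, went from 257, 247 and 249 to 183, 158 and 134 CPM (log2 fold change -0.67, SE 0.10, adjusted p = 0.000292). Also called lower were Dmd, Dtna, Nos1, Sspn and the sarcoglycans Sgca, Sgcb and Sgcd, with log2 fold changes from -0.91 (Sgcd) to -0.25 (Sgcb). Without EV_DOX 1 the value of Sgcd was -0.52 and it was no longer called. With the length offset Dmd stood at -0.21 and was not called (adjusted p = 0.081 in edgeR). With library totals only, Dmd and these sarcoglycans were not called either. Dmd and these sarcoglycans lost their calls without DUX_DOX 3, and these sarcoglycans without others too (Sgca and Sgcb also without DUX 1, DUX 2, DUX 3, EV 3, EV_DOX 2 or EV_DOX 3, Sgca without EV 1 or DUX_DOX 2, Sgcb without DUX_DOX 1, Sgcd without DUX_DOX 2). These 7 are named outside the rule, after their values were seen.

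The classes of energy metabolism held different shares of genes called lower, beside 10.3% of all genes, and the difference between classes was not tested. Of 27 regulators of mitochondrial biogenesis and fuel sensing 13 were called lower and 3 higher (median -0.30). Opa1, which fuses inner membranes, went from 149, 129 and 150.3 to 105, 95.4 and 90.4 CPM (log2 fold change -0.56, SE 0.08, adjusted p = 0.000243). Prkaa2, the muscle catalytic subunit of the energy sensor AMPK, went from 292, 265 and 272 to 215, 184 and 151 CPM (log2 fold change -0.59, SE 0.11, adjusted p = 0.00124), and its partner Prkag3 fell by 0.69 (SE 0.12, adjusted p = 0.00102). These values did not overlap between groups. Of 81 nuclear genes of the respiratory chain 4 (4.94%, under the share of all genes) were called lower (median -0.16), with 2 without DUX_DOX 2, DUX_DOX 3 or EV_DOX 3 or with only the 6 libraries, 7 without DUX_DOX 1, 8 with upper-quartile factors, 10 by DESeq2, 17 with the length offset and 18 without EV_DOX 1. Of 15 mitochondrially encoded transcripts 1 was called lower, 0 without DUX_DOX 2, DUX_DOX 3 or EV_DOX 2 or with library totals only and 2 without EV_DOX 1 or by DESeq2 (median -0.18). Of 73 mitochondrial ribosomal proteins 3 were called lower (4.11%), 0 without DUX_DOX 2 or EV_DOX 3 or with library totals only, 1 without DUX_DOX 3 or with only the 6 libraries, 6 with upper-quartile factors, 8 with the length offset and 9 without EV_DOX 1 (median -0.11). For fatty acid oxidation and the TCA cycle 16 of 43 were called lower (median -0.32), with 8 without EV_DOX 3, 9 without DUX_DOX 2 or DUX_DOX 3, 25 without EV_DOX 1 and 26 with the length offset. Hadh, an enzyme of beta oxidation, went from 158, 149 and 183 to 125, 98.3 and 117 CPM (log2 fold change -0.53, SE 0.11, adjusted p = 0.00254). Of 39 Slc25 carriers 9 were called lower, 5 without EV_DOX 3, and 4 higher, 2 without DUX_DOX 3, EV_DOX 1 or EV_DOX 3 or with only the 6 libraries (median -0.21). Slc25a42, the carrier of coenzyme A, went from 48.9, 49.1 and 57.3 to 28.7, 29.7 and 28.8 CPM (log2 fold change -0.83, SE 0.10, adjusted p = 3.97e-05), with DUX_DOX libraries nearly equal.

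In sugar metabolism 12 of 35 genes (34.3%) were called lower and 4 (11.4%) higher (median -0.28), beside 10.3% and 14.9% of all genes. The number lower was 7 without DUX_DOX 3 or EV_DOX 3, and the number higher was 2 without DUX_DOX 3. Among those lower was Phkg1, the catalytic subunit of phosphorylase kinase in glycogen breakdown, at 492, 519 and 536 CPM in EV_DOX and 341, 313 and 304 CPM in DUX_DOX (log2 fold change -0.69, SE 0.08, adjusted p = 2.07e-05). Tbc1d4, which gates the glucose transporter under insulin, went from 12.2, 14.7 and 14.2 to 7.54, 6.58 and 5.1 CPM (log2 fold change -1.10, SE 0.17, adjusted p = 0.000377). In lipid storage 8 of 20 genes (40%) were called lower, 5 without DUX_DOX 3 or EV_DOX 3. Another 1 (5%) was called higher, 2 without EV_DOX 1. Plin5, which ties lipid droplets to mitochondria, went from 18.6, 15.5 and 22.6 to 8.61, 7.37 and 8.04 CPM (log2 fold change -1.24, SE 0.21, adjusted p = 0.000672). Gpam, the first enzyme of triglyceride synthesis, went from 192, 181 and 209.6 to 122, 109 and 89.4 CPM (log2 fold change -0.86, SE 0.11, adjusted p = 4.92e-05). All 3 DUX_DOX libraries lay below the EV_DOX libraries in these 4 genes. Adipocyte markers, which could also carry lipid genes, had 7 members measured and 0 called in edgeR (0 by DESeq2 and limma-voom, and 2 lower at an unadjusted p under 0.05), and 1 called lower without EV 2, EV_DOX 1 or EV_DOX 2, with a summed level of 1565 to 3117 CPM in EV_DOX and 1044 to 1868 CPM in DUX_DOX. Their part in the lipid results was not tested.

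Other marked falls were spread over membrane and regulatory genes. Aqp4, the water channel of fast fibres, went from 41.5, 47 and 46.2 to 22.7, 17.7 and 19.8 CPM (log2 fold change -1.16, SE 0.12, adjusted p = 5.95e-06). Lrtm1, a leucine-rich repeat membrane protein, went from 60.6, 62.7 and 72.5 to 30.8, 24.8 and 26.9 CPM (log2 fold change -1.25, SE 0.17, adjusted p = 0.00013). Tfcp2l1, a grainyhead-like transcription factor, went from 15.3, 12.7 and 18.9 to 7.01, 6.44 and 6.65 CPM (log2 fold change -1.22, SE 0.15, adjusted p = 5.87e-05). No library of either group crossed into the other for these genes, which the naming rule for the largest falls required. Slc25a34, a mitochondrial carrier, went from 9.56, 8.98 and 18.9 to 4.34, 2.29 and 4.64 CPM (log2 fold change -1.74, SE 0.38, adjusted p = 0.00457), with EV_DOX 3 the highest control. Zfp871, a zinc finger gene, went from 9.56, 4.96 and 4.62 to 1.83, 1.86 and 0.928 CPM (log2 fold change -2.04, SE 0.43, adjusted p = 0.00308), with EV_DOX 1 the highest control, as it was for Cyp4f39, a cytochrome P450 of skin lipids (29.1, 10.1 and 15.1 against 6.4, 5.86 and 8.12 CPM, log2 fold change -1.42, or -0.89 without EV_DOX 1).

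Genes of growth and wasting signals were called in both directions. Of 42 genes of myostatin, activin and Smad signalling 10 (23.8%) were called higher, 6 without EV_DOX 3, and 4 (9.52%) lower (median 0.12). Over all genes 14.9% were higher and 10.3% lower, so that the share lower was near that of all genes. Smad1, which carries the BMP signal, went from 14.7, 12.5 and 12.4 to 26.8, 30.8 and 27.7 CPM (log2 fold change 1.10, SE 0.11, adjusted p = 4.89e-06). Smad2 went from 10.9, 11.5 and 11 to 16.3, 19 and 16.8 CPM (log2 fold change 0.64, SE 0.11, adjusted p = 0.000569), and Smad3, the other effector of myostatin, from 143, 126 and 129 to 96.8, 80.5 and 72.7 CPM (log2 fold change -0.67, SE 0.11, adjusted p = 0.000513). So both groups stood apart for each of the 3 Smads, with Smad3 in the opposite direction. Of 20 ubiquitin ligases of muscle 7 (35%) were called lower, 3 without DUX_DOX 3 and 4 without EV_DOX 3 or with library totals only. Another 4 (20%) were called higher. That count was 1 without EV_DOX 2 and 2 without DUX_DOX 2 or EV_DOX 3, with only the 6 libraries or with upper-quartile factors. Fbxo32, the atrogin-1 ligase, went from 255, 211 and 189 to 87.2, 142 and 112 CPM (log2 fold change -0.94, SE 0.19, adjusted p = 0.00233), Wwp1 fell by 0.56 (SE 0.08, adjusted p = 0.000241), and Trim63, the MuRF1 ligase, stood at 170.1, 190.1 and 183 CPM and 166, 174 and 176 CPM (log2 fold change -0.07, adjusted p = 0.741) with overlapping groups. Igfbp5, which binds the growth factors IGF1 and IGF2, went from 828, 891 and 840.5 to 445, 458 and 390.2 CPM (log2 fold change -0.99, SE 0.10, adjusted p = 5.93e-06), and Deptor, an inhibitor of mTOR, from 99.7, 96.9 and 102 to 56.9, 64.8 and 50.2 CPM (log2 fold change -0.79, SE 0.10, adjusted p = 8.56e-05).

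Genes of regeneration and nerve contact were called in both directions. Of 25 neuromuscular junction and denervation genes 4 were called higher (16%, near the 14.9% of all genes) and 2 lower, 1 with library totals only and 4 without EV_DOX 1 (median -0.02). Myog, the myogenic factor of differentiation, went from 3.07, 3.33 and 3.29 to 6.4, 6.15 and 8.42 CPM (log2 fold change 1.11, SE 0.17, adjusted p = 0.000327). Runx1, which denervated muscle induces, went from 4.82, 2.48 and 3.05 to 12.3, 14.2 and 13.9 CPM (log2 fold change 1.96, SE 0.26, adjusted p = 8.56e-05). Musk, the kinase that clusters acetylcholine receptors, went from 9.71, 5.81 and 5.56 to 14.9, 24.2 and 18.5 CPM (log2 fold change 1.45, SE 0.22, adjusted p = 0.000252), while its co-receptor Lrp4 fell by 0.76 (SE 0.16, adjusted p = 0.003). The groups did not overlap in these 4 genes, with EV_DOX 1 the highest control for Runx1, Musk and Lrp4. Tnfrsf12a, the receptor of the cytokine TWEAK, went from 13.4, 6.43 and 6.34 to 117, 111 and 138 CPM (log2 fold change 3.80, SE 0.33, adjusted p = 1.54e-06). Of 24 myogenic and satellite cell genes 7 (29.2%) were called higher and 2 (8.33%) lower (median -0.03). Over all genes 14.9% were higher and 10.3% lower. The number higher was 4 without DUX_DOX 1, DUX_DOX 3 or EV_DOX 2. The number lower was 0 to 3 when 1 library was left out. Fitted values were above 0 in 10 of the 24 genes and below 0 in 14.

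Most macrophage markers and more than the background share of chemokine and complement genes were called higher in induced muscle. Among the macrophage and monocyte markers 22 of 26 were called higher (median 1.19), none of the 26 was at 0, and the summed level was highest in DUX_DOX 3. Cd68, a lysosomal protein of macrophages, went from 4.75, 4.8 and 4.07 to 24.8, 31.4 and 37.6 CPM (log2 fold change 2.78, SE 0.23, adjusted p = 1.26e-06). Ccr2, the receptor that calls monocytes into tissue, went from 11.6, 5.73 and 7.04 to 27.3, 20.3 and 26.9 CPM (log2 fold change 1.61, SE 0.24, adjusted p = 0.00027). Its ligand Ccl2 went from 0.146, 0.697 and 0.313 to 19.7, 13.5 and 23.7 CPM (log2 fold change 5.60, SE 0.51, adjusted p = 2.51e-06). Every DUX_DOX library was above every EV_DOX library in these genes. Mrc1, Lyz1, Ms4a7 and Cd163 did not pass the test, with log2 fold changes of 0.78, 0.48, 0.45 and 0.19 (chosen outside the rule, as the members not called), though Mrc1 was called without DUX_DOX 1, EV 2, EV 3 or EV_DOX 1. Of 38 chemokine and cytokine symbols 19 were measured, and 11 were called higher, 7 without DUX_DOX 3 or EV_DOX 3. In complement 7 of 18 were called higher, among them C5ar1 (1.86) and C3ar1 (1.48), receptors of cleaved complement (adjusted p = 0.00127 and 0.00387).

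Matrix genes were called in both directions. Of 49 genes 13 (26.5%) were called higher and 4 (8.16%) lower (median 0.20), beside 14.9% and 10.3% of all genes. The other 32 were not called. The number higher was 8 without DUX_DOX 3. The number lower was 0 without DUX_DOX 1 and 1 without DUX_DOX 3 or EV_DOX 1 or with library totals only. It was 2 without DUX_DOX 2 or by limma-voom. Timp1, an inhibitor of metalloproteases, went from 1.53, 0.775 and 0.861 to 28.7, 20.3 and 33.1 CPM (log2 fold change 4.67, SE 0.34, adjusted p = 2.95e-07). Postn, a matricellular protein of repair, went from 34.5, 20.2 and 9.23 to 120.2, 104 and 167 CPM (log2 fold change 2.61, SE 0.50, adjusted p = 0.00176), and Cyr61, a target of Yap, from 35.8, 13.9 and 15.2 to 98.3, 80.7 and 87.4 CPM (log2 fold change 2.03, SE 0.28, adjusted p = 0.000133). EV_DOX 1 was the highest control library for each of these 3 genes, and no DUX_DOX library fell to its level. Summed matrix levels were 8140.4, 4566 and 2289 CPM in EV_DOX 1, 2 and 3 and 4951, 5969 and 6347 CPM in DUX_DOX, so that EV_DOX 1 exceeded all induced libraries. The 10 tenocyte markers gave 1036, 216 and 138 CPM and 379.7, 325 and 459.8 CPM in the same order, with a median of -1.24, or 0.43 without EV_DOX 1, and their part in the matrix values was not tested. Tenascin C (Tnc), the 1 tenocyte marker called, went from 29.9, 5.19 and 2.11 to 96.8, 79.2 and 132 CPM (log2 fold change 3.03, SE 0.68, adjusted p = 0.005), a value of 4.81 without EV_DOX 1.

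Markers of the other cell types in muscle were called in shares near or below those of all genes (14.9% higher and 10.3% lower), with a few lists above. Of 17 endothelial markers 2 were called higher and 2 lower (11.8% each), 0 to 2 and 1 to 2 when 1 library was left out, with a summed level of 939 to 979.5 CPM in EV_DOX and 881 to 903 CPM in DUX_DOX. Kdr, the main receptor of vascular growth factor, fell by 0.52 (SE 0.12, adjusted p = 0.00492). Of 15 fibro-adipogenic markers 3 were called higher (20%), with Mfap5, a microfibril protein, from 15.2, 22.7 and 9.47 to 45.9, 48.1 and 67.6 CPM (log2 fold change 1.77, SE 0.23, adjusted p = 9.14e-05). Of 12 Schwann cell markers 1 was called higher, and 7 without EV_DOX 2. The 1 called was Egr2, also reported above among the immediate early genes. Of 12 satellite cell markers 3 were called higher (25%), as many in each alternative (median -0.09). These 3 include Des, which is also counted above as a skeletal muscle marker. In the same list 1 was called lower, 0 without DUX_DOX 1, DUX_DOX 3 or EV_DOX 1 or with library totals only or by limma-voom and 2 without DUX_DOX 2. Smooth muscle markers numbered 1 higher and 2 lower of 13, the former up to 3 without EV 1, EV 2 or EV_DOX 2. Lymphocyte and neutrophil lists were thinly measured. Of 9 B and plasma cell symbols 2 were in the table. Ighm, the immunoglobulin heavy chain of B cells, was lower by 0.96 (SE 0.20, adjusted p = 0.00299), and the other stood at 0.04 and was not called. Of 14 T and NK cell symbols 1 was in the table and was not called (0.41). Of 10 neutrophil symbols 1 was in the table and was called higher (log2 fold change 1.12). That call was lost without DUX_DOX 2, DUX_DOX 3, EV_DOX 2 or EV_DOX 3 or by DESeq2.

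**Figure D5:**
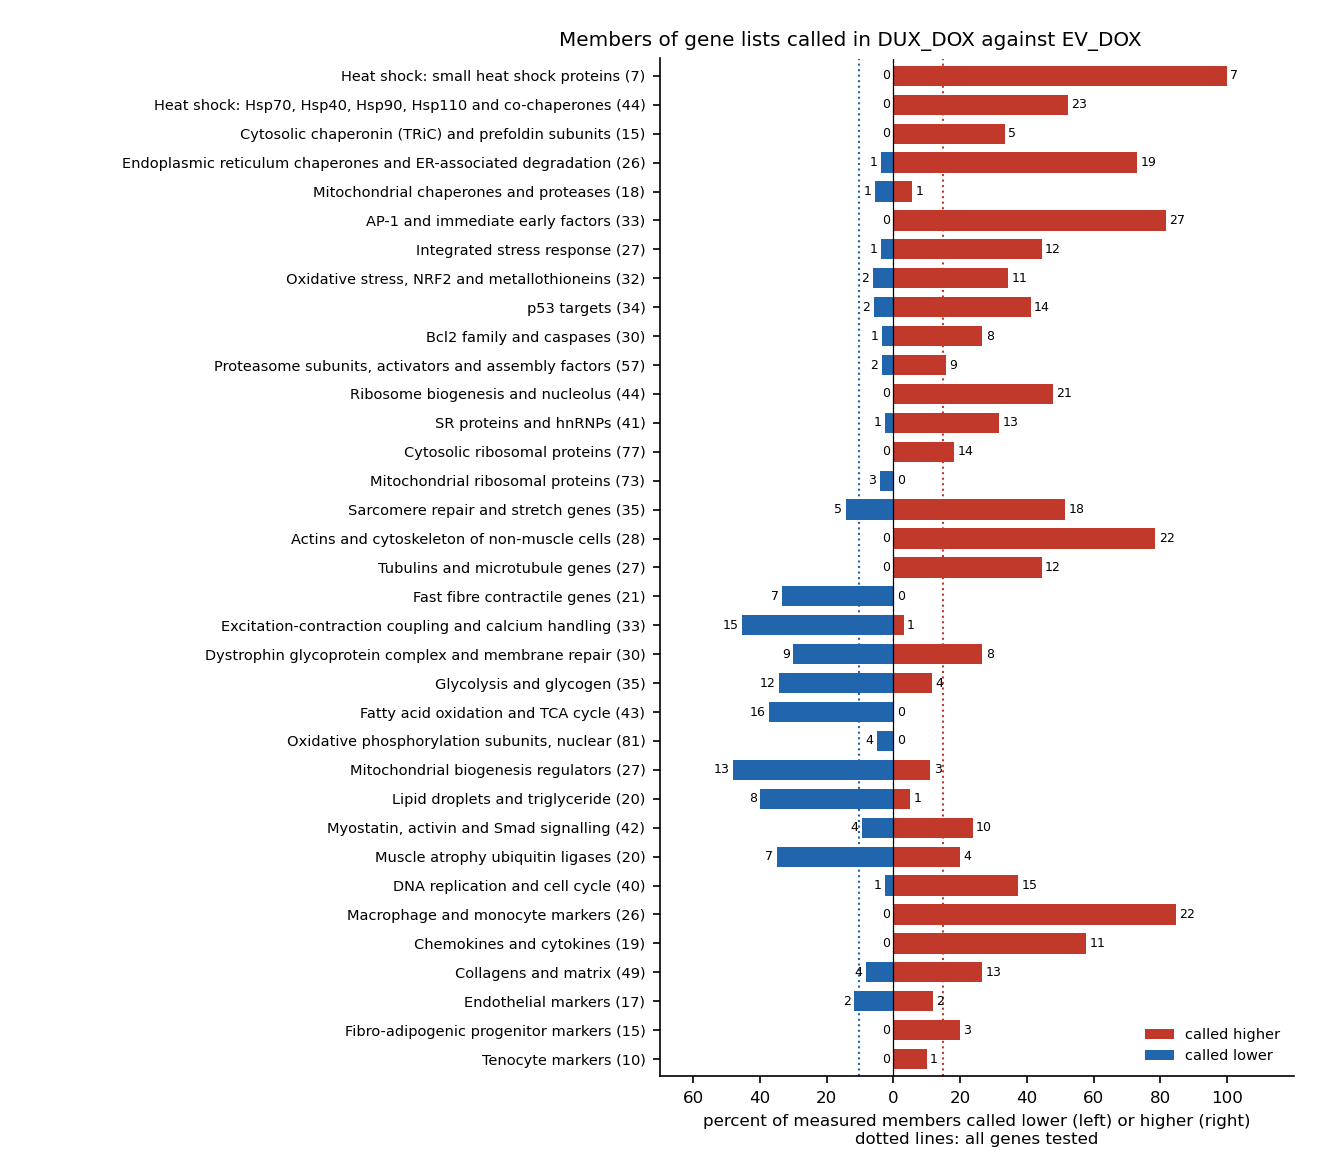
Bars give the percent of measured members of 35 gene lists that were called higher (red, right) or lower (blue, left) in DUX_DOX against EV_DOX, with counts at the bar ends, list sizes in brackets and dotted lines at the 14.9% and 10.3% of all genes tested. Small heat shock proteins, macrophage markers (22 of 26) and AP-1 genes (27 of 33) reach farthest right, and mitochondrial biogenesis regulators (13 of 27) and excitation-contraction genes (15 of 33) farthest left.

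The same vectors on normal chow serve as the uninduced background. In DUX against EV 0 of 12751 genes passed the test in edgeR (0% called, 2012 at an unadjusted p under 0.05), with a smallest adjusted p of 0.179, while limma-voom called 0 and DESeq2 115. Without EV 2 the count was 118 and without DUX 2 it was 1. The genes that rose by more than 2-fold after doxycycline had a median log2 fold change of 0.09 on normal chow, and those that fell by more than 2-fold one of -0.32. Cryab, at 357, 485 and 329.8 CPM in EV and 688, 742 and 563 CPM in DUX, was higher in each DUX library than in any EV library without passing the test (log2 fold change 0.77, adjusted p = 0.179). Hspb1 stood at 44.6, 46.3 and 48.4 CPM in EV and 44.6, 58.7 and 50.6 CPM in DUX, with overlapping groups.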

How the data were processed

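Poly-A RNA libraries of whole tibialis anterior were read as counts per gene. Per the submitters' processing notes, the tools named are featureCounts, STAR and bcl2fastq 2.17.1.14, with GRCm38 as the genome build; the count table is used as the authors deposited it, and whether the counting used strand is not given in the sources used here. All 12 libraries, with 11880593 to 13811999 counts each, entered 1 fit with 4 group means in edgeR 4.0.16 (R 4.3.3), with filterByExpr, TMM factors and the quasi-likelihood test, and p-values were adjusted by Benjamini-Hochberg over the 12751 genes that passed the filter. A gene was called at an adjusted p under 0.05, and the script was tested on simulated data. Intervals and the floor of 3 counts cover counting error only. The 24 alternatives, among them DESeq2 1.42.0, limma-voom (limma 3.58.1), other scalings and filters, offsets and leaving out each library, are in the closing section. Named genes were AW822073, the 15 largest rises and falls of genes with 5 CPM or more, no overlap and an established symbol, the 10 largest rises and falls in mean CPM, the 10 smallest p-values, up to 4 called members of each of 65 gene lists with the smallest p, and 7 genes of myostatin signalling and atrophy. Any other gene was chosen after its values were seen. The comparison and the lists were chosen with earlier results of these data known. Positions and gene types come from GENCODE M21 on GRCm38. Some genes are not reported here.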

Additional observations from a re-analysis of the deposited data

Results flagged for a closer look

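The effect of the Dux vector was compared between the chows, by testing the interaction of vector and chow over the 12 libraries with the edgeR quasi-likelihood test. This difference itself passed the test for 1326 genes (10.4% of those tested). Among them were 374 of the 618 genes that rose by more than 2-fold on doxycycline chow and 23 of the 87 that fell by as much. Plin5, a lipid droplet protein, had a log2 fold change of -1.24 on doxycycline chow and 0.57 on normal chow (adjusted p of the difference = 0.0012). Slc25a34, a mitochondrial carrier, had -1.74 and 0.96 (adjusted p = 0.0046).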

How the results depend on the processing

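Of 154 genes named in the text, 139 kept their call, or lack of one, in all 24 alternatives, and 0 called genes reversed direction. AW822073 and Rn7sk kept theirs in the 23 that tested them (a minimum mean of 1 CPM left them out). Of the 146 that were called, 135 kept the call wherever tested. Most were chosen by p, size or no overlap in the main fit, which favours stable calls. Over all genes, 70.2% of the higher and 54.1% of the lower calls were kept without DUX_DOX 3. With library totals only, 51.1% of the lower calls were kept. The number of genes called lower was 674 with library totals only and ran from 739 to 1385 when 1 library was left out, and the number lower by more than 2-fold was 48 with library totals only and ran from 55 to 138. The numbers called higher, 1370 to 1970 without 1 library, and higher by more than 2-fold, 509 to 715, stayed within 1.5 times the main count. In DUX against EV, DESeq2 called 115 genes, and 0 to 118 were called when 1 library was left out. The cause of these shifts was not tested. With the replicate number as a block, 1695 genes were called higher and 1122 lower, 615 and 77 by more than 2-fold, and 0 in DUX against EV; the calls of 5 named genes were lost, with adjusted p = 0.0551 for Neb, 0.0695 for Ttn, 0.0604 for Sgcb, 0.0816 for Sgca and 0.0949 for Slc25a51 in edgeR. With this block the members called lower were 0 of the skeletal muscle markers, 3 of the sarcomere repair list and 2 of the nuclear respiratory chain, and those called higher were 2 of TRiC and prefoldin and 2 of the muscle ubiquitin ligases. The labels do not say whether EV_DOX and DUX_DOX limbs of the same number came from the same animal. Deviations of libraries with the same number had correlations of -0.11, 0.09 and 0.00, which neither shows a pairing nor settles that there is none, and the comparison was made without the block. With 3 libraries a side, changes of scarce genes are estimated from few reads, and a call that is missing does not show that a gene did not change.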

Other observations

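The counts in this section stand beside 14.9% of all genes called higher and 10.3% called lower. Of 310 zinc finger genes with a Zfp number, 28 were called higher and 34 lower in DUX_DOX (median -0.12). Their share higher was under that of all genes, and their share lower was near it. The number higher was 16 to 18 without EV_DOX 2 or DUX_DOX 2. The number lower was 19 to 20 without DUX_DOX 3 or EV_DOX 3. Of 22 circadian clock genes 4 (18.2%) were called higher, 2 without DUX_DOX 2, DUX_DOX 3 or EV_DOX 3, and 4 (18.2%) lower. Whether these shares differ from those of all genes was not tested. Of 22 antigen presentation genes 5 were called higher (median 0.15), 2 without DUX_DOX 3 and 3 without EV_DOX 3. Of 38 interferon-induced genes 1 was called higher (median 0.07), with 0 without DUX_DOX 2, DUX_DOX 3, EV_DOX 2 or EV_DOX 3 and 2 without DUX 3, DUX_DOX 1 or EV 2.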
